A study of Homo sapiens with 28 samples.

Results

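Transcripts of 7 matrix metalloproteinases (MMP1, MMP2, MMP7, MMP9, MMP10, MMP13 and MMP14) and of 3 of their tissue inhibitors (TIMP1, TIMP2 and TIMP3) were followed in 2 human lung adenocarcinoma cell lines, A549 and H1944. The 10 genes were taken by name, with earlier results of these data known, and all 10 were found among the 60483 gene rows of the deposited count table. Both lines, the controls included, carried the fluorescent reporter MGT#1-mVenus. For 11 days cells received either 5 µM GSK126, which blocks the methyltransferase EZH2, or 5 ng/ml of the cytokine TGF-β1, and were then sorted by mVenus fluorescence into a low and a high gate. Naive cells were untreated and unsorted, so that treatment and sorting cannot be told apart in comparisons with them. Of A549, the naive group held 3 libraries, the GSK126 gates 3 (low) and 2 (high), and the TGF-β1 gates 2 (low) and 3 (high). All 5 H1944 groups held 3. The labels give each library a letter, A to C, but do not say that letters were separate cultures, so p-values measure only the spread between these libraries, which may be technical.

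Matrix metalloproteinases are zinc-dependent enzymes that are made as inactive precursors and cut proteins of the extracellular matrix and the cell surface once their propeptide is removed. TIMPs bind the active site and block it. MMP14, which sits in the plasma membrane, uses TIMP2 as a bridge to hold and activate the MMP2 precursor, so TIMP2 can serve both activation and inhibition. In carcinomas several of these genes are known as targets of TGF-β signalling and of AP-1 transcription factors, and MMP7 is unusual in being made mainly by epithelial cells.

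Total counts ran from 2013449 to 9550143 per library in A549 and from 1660148 to 13280592 in H1944. Levels are given as CPM, counts scaled to a common library total, and, to compare genes with each other, as TPM, which also divides by exon length. Reads on 381 olfactory receptor genes, which these cells should not transcribe, summed to a median of 80.0 CPM in A549 and 14.4 CPM in H1944. A549 naive A held 202 CPM and A549 TGF-β1 high B 313 CPM of them, and no other A549 library more than 125 CPM. Summed over 6 epithelial markers, the level ran from 12200 to 12800 CPM in naive A549 and from 4990 to 5620 CPM in naive H1944, and from 5000 to 7390 CPM and from 1490 to 1730 CPM under TGF-β1. Under GSK126 this sum ran from 8040 to 10800 CPM in A549 and from 4940 to 7680 CPM in H1944. The markers did not all move alike: in A549 under TGF-β1 mean KRT7 rose from 2040 to 3570 CPM, while the means of EPCAM, KRT8, KRT18, KRT19 and CDH1 fell. In H1944 the means of all 6 fell under TGF-β1. KRT8 stayed at or above 1070 CPM in every library, whereas KRT19 was at or below 0.393 CPM in H1944 under TGF-β1. Summed over 6 fibroblast markers, the level ran from 1.45 to 31.4 CPM in naive A549 and from 36.9 to 80.0 CPM under TGF-β1. In H1944 the fibroblast sum ran from 0 to 2.86 CPM in naive cells and from 90.1 to 122 CPM under TGF-β1, where THY1 stayed at or below 0.786 CPM. LUM, DCN and COL3A1 held most of that sum (medians of 43.9, 33.3 and 16.6 CPM), and the part of other cells in the results was not tested. The 4 endothelial markers summed to at most 42.3 CPM and the 5 leukocyte markers to at most 19.7 CPM in any library.

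Differences were tested with edgeR's quasi-likelihood test over all genes that passed its filter on low counts, and a gene was called changed at a Benjamini-Hochberg adjusted p under 0.05. A comparison of a treatment with naive cells takes the mean of both gates. The filter passed 9 members in A549, where TIMP3 was left out, and 7 in H1944, where MMP1, MMP9 and MMP13 were left out. To pass, a gene had to reach 2.09 CPM in at least 2 A549 libraries or 3.92 CPM in at least 3 H1944 libraries. No naive library reached that level for MMP1, MMP9 and MMP10 in A549 or for MMP2, MMP7, MMP10 and TIMP3 in H1944, so these members passed through treated libraries alone. Such genes had to differ, so their tests against naive cells and the counts over the tested members are descriptions.

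In naive A549 the inhibitor TIMP1 (135 ± 26.2 TPM, SD, n = 3) and the epithelial protease MMP7 (131 ± 38.8 TPM) were the most abundant members, and these levels did not differ beyond their spread. MMP2 (13.6 ± 0.675 TPM) and TIMP2 (10.1 ± 1.71 TPM) followed. The other 6 members had means of at most 1.72 TPM, and TIMP3 had no count in the 3 naive libraries. In naive H1944 TIMP1 also led (115 ± 7.92 TPM, n = 3), but MMP14 came next (32.7 ± 0.837 TPM) and then TIMP2 (15.2 ± 1.29 TPM). The other 7 members had means of at most 0.648 TPM, the level of MMP7. Under TGF-β1 MMP2 led in both lines: in the high gate it reached 760 ± 199 TPM in A549 and 1129 ± 151 TPM in H1944 (n = 3 each), above TIMP1 at 168 ± 52.6 and 203 ± 9.85 TPM.

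**Figure D1:**
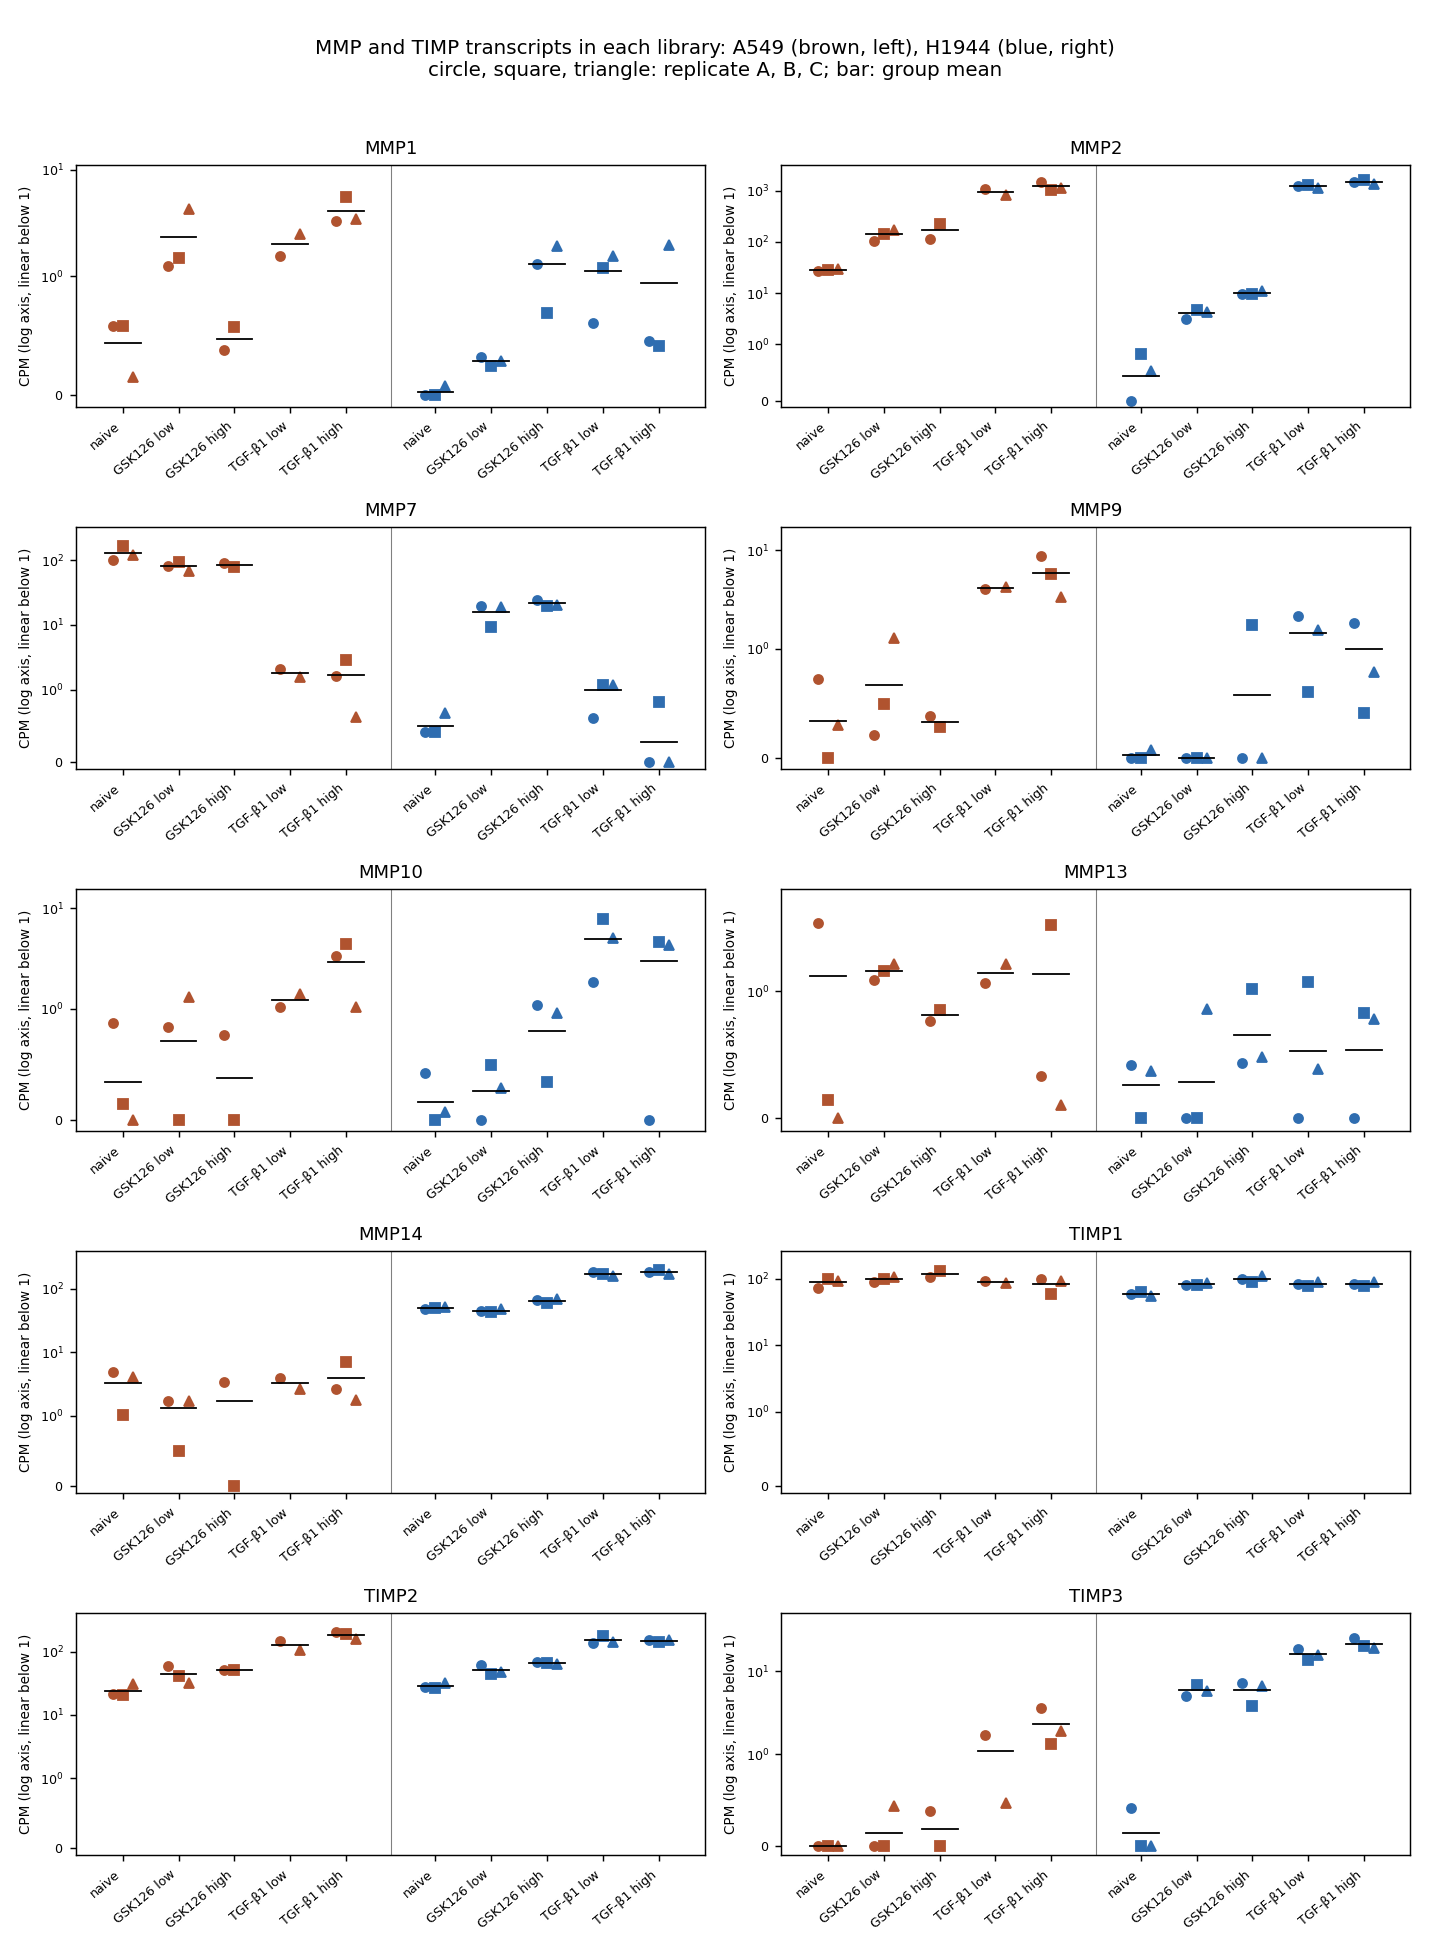
Level of each member in each of the 28 libraries, in CPM on an axis that is logarithmic above 1 and linear below it; A549 groups are on the left in brown, H1944 groups on the right in blue, symbols mark replicate letters and bars mark group means. MMP2 lies between 837 and 1609 CPM in every TGF-β1 library of both lines, and MMP7 is high in naive A549 (101 to 163 CPM) and in H1944 under GSK126 (9.40 to 24.6 CPM).

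The gelatinase MMP2, which cuts denatured collagen and basement membrane collagen, rose in all comparisons of treated with naive cells. In A549 the naive libraries held 26.7, 28.2 and 30.2 CPM. Under GSK126 the low gate held 105, 146 and 174 CPM and the high gate 113 and 226 CPM. Under TGF-β1 the low gate held 1064 and 837 CPM and the high gate 1488, 1040 and 1127 CPM. The 3 arms did not overlap. The log2 fold change was 2.37 ± 0.31 (SE) with GSK126 (edgeR adjusted p = 6.93e-05) and 5.08 ± 0.35 with TGF-β1 (edgeR adjusted p = 5.75e-09). TGF-β1 stood 2.71 ± 0.26 above GSK126 on the log2 scale (edgeR adjusted p = 3.92e-07). These are levels of whole cultures or gates, in which more cells with a transcript and more transcript per cell cannot be told apart.

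In H1944 MMP2 started from almost no transcript, with 0, 2 and 7 counts in the naive libraries (0, 0.832 and 0.527 CPM). Under GSK126 the 6 libraries held from 3.19 to 11.1 CPM (median 7.08), and under TGF-β1 from 1150 to 1609 CPM (median 1338). None of the 3 arms overlapped. Because the naive arm had 9 counts, the ratio of pooled counts is given with its exact 95% counting interval: 13.7-fold (7.03 to 30.7) for GSK126. The fitted log2 change was 3.48 ± 0.32 for GSK126 (edgeR adjusted p = 5.85e-11) and 11.38 ± 0.18 for TGF-β1 (edgeR adjusted p = 4.32e-32). TGF-β1 exceeded GSK126 197-fold in pooled counts (167 to 235). Counting intervals cover counting error only, since reads without molecular identifiers may be PCR copies.

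MMP9, the other gelatinase, was low in both lines. In A549 the naive libraries held 5, 0 and 2 counts and the GSK126 libraries from 1 to 3 counts each. Under TGF-β1 the 5 libraries held 26 to 32 counts, or 4.04 and 4.21 CPM in the low gate and 8.66, 5.76 and 3.35 CPM in the high gate, all above every naive library. MMP9 rose by a log2 fold change of 3.70 ± 0.87 with TGF-β1 in A549 (edgeR adjusted p = 0.00446), while its value with GSK126 was 0.41 ± 0.96 (edgeR adjusted p = 0.867). It passed the filter through the 5 TGF-β1 libraries alone. In H1944 MMP9 did not pass the filter: the naive arm held 1 count, the GSK126 arm 5 counts, all in library B of the high gate, and the TGF-β1 arm 19 counts in 6 libraries. An antisense gene, SLC12A5-AS1, covers 430 exon bases of MMP9, and the strand setting of the counting is not given in the sources used here.

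MMP14, the membrane-bound activator of the MMP2 precursor, separated the lines. In naive H1944 it stood at 47.5, 48.7 and 50.8 CPM, and in naive A549 at 4.78, 1.01 and 4.12 CPM. In H1944 it lay between 42.3 and 68.8 CPM under GSK126, which overlaps the naive range, and between 158 and 195 CPM under TGF-β1, above both. It rose by 1.91 ± 0.10 on the log2 scale with TGF-β1 (edgeR adjusted p = 4.86e-18), and the value with GSK126 was 0.01 ± 0.10 (edgeR adjusted p = 0.972). In A549 the 13 libraries held 0 to 7.09 CPM, and the highest, TGF-β1 high B and naive A, were those with the most olfactory receptor reads. MMP14 was not called there with either treatment. Its log2 fold change was -1.14 ± 0.79 with GSK126 (edgeR adjusted p = 0.494) and -0.04 ± 0.75 with TGF-β1 (edgeR adjusted p = 0.990), the latter turning to 0.03 with RLE size factors.

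The inhibitor TIMP2 rose in all 4 comparisons with naive cells. In A549 naive libraries held 21.5, 20.4 and 30.6 CPM. The GSK126 libraries held 59.2, 41.7 and 31.5 CPM in the low gate and 51.5 and 50.8 CPM in the high gate. The TGF-β1 libraries held 147 and 104 CPM in the low gate and 204, 189 and 160 CPM in the high gate. The arms did not overlap, but library C of the low GSK126 gate lay only just above naive C. The log2 fold change was 0.90 ± 0.26 with GSK126 (edgeR adjusted p = 0.0401) and 2.48 ± 0.27 with TGF-β1 (edgeR adjusted p = 1.44e-06). The GSK126 call was lost in 10 of 17 alternatives. In 6 of them 1 library was left out: GSK126 low A (0.73), low B (0.92), high A (0.86), high B (0.85), naive A (0.78) or naive B (0.88).

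In H1944 TIMP2 moved by similar amounts from a similar start. Naive libraries held 27.3, 27.0 and 31.6 CPM, GSK126 libraries from 43.8 to 68.6 CPM (median 62.8) and TGF-β1 libraries from 140 to 175 CPM (median 148). The arms did not overlap. The log2 fold change was 0.87 ± 0.12 with GSK126 (edgeR adjusted p = 2.90e-07) and 2.42 ± 0.12 with TGF-β1 (edgeR adjusted p = 8.86e-19). Between the lines the effects differed by -0.06 ± 0.26 for GSK126 and -0.20 ± 0.25 for TGF-β1 (H1944 minus A549, edgeR adjusted p = 0.934 and 0.663), which does not show them equal. CEP295NL shares 198 exon bases and the strand with TIMP2, and at means of 1.08 to 6.07 CPM in the 6 arms it lay far below TIMP2.

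Set against each other per length, MMP2 and TIMP2 changed places in H1944. The ratio of MMP2 to TIMP2 in TPM was 0 to 0.0351 in naive H1944, 0.0592 to 0.197 under GSK126 and 8.56 to 12.7 under TGF-β1. In A549 MMP2 already exceeded TIMP2 in naive cells, with ratios of 1.12 to 1.58, and the ratio was 2.02 to 6.29 under GSK126 and 6.27 to 9.16 under TGF-β1. The ranges of TGF-β1 and GSK126 libraries overlapped slightly in A549 and did not overlap in H1944. These are ratios of transcripts, not of proteins.

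**Figure D2:**
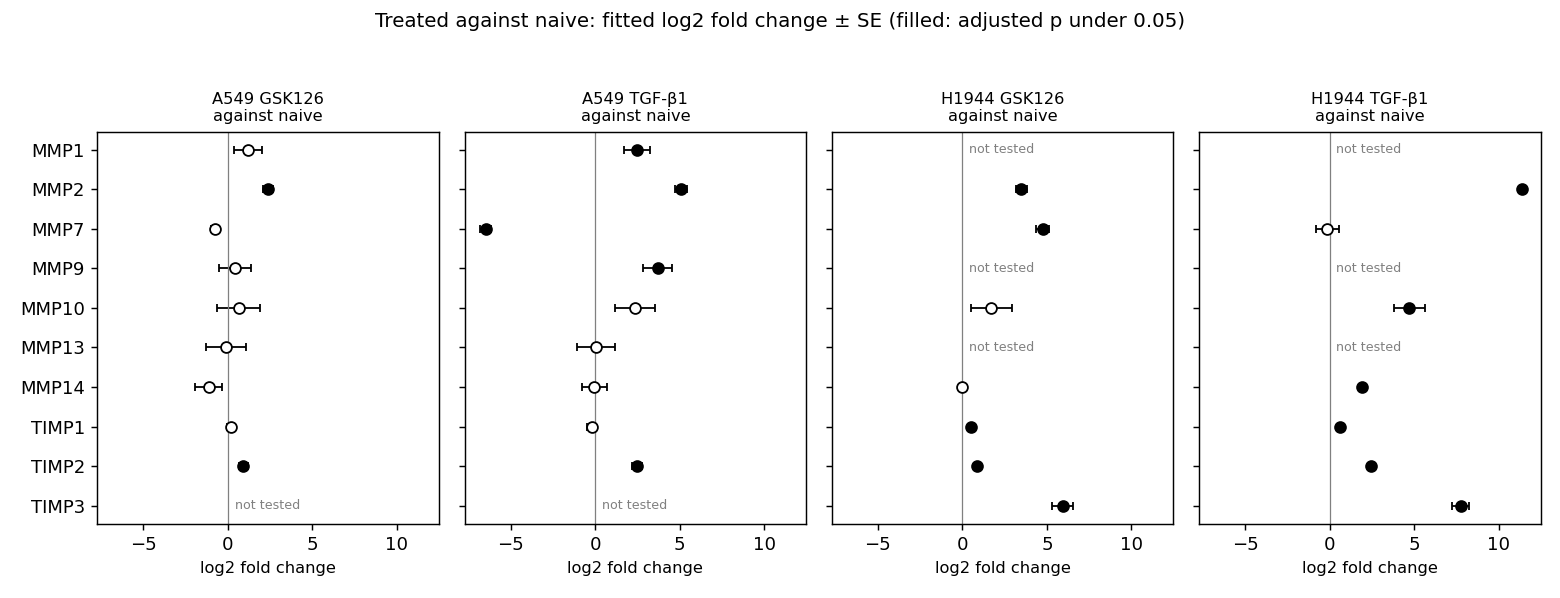
Fitted log2 fold change of each member, treated against naive, with its SE as a bar, for both treatments in A549 and H1944; filled points had an edgeR adjusted p under 0.05 and members left out by the filter are marked. MMP2 and TIMP2 are filled in every panel, and MMP7 lies at -6.47 with TGF-β1 in A549 and at 4.75 with GSK126 in H1944.

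MMP7, or matrilysin, a small protease of epithelial cells that lacks the hemopexin domain of most others, was the member whose direction differed between lines and treatments. In A549 the naive libraries held 101, 163 and 120 CPM. The GSK126 libraries held 80.3, 92.4 and 67.4 CPM in the low gate and 90.1 and 77.6 CPM in the high gate, all below the lowest naive library. The TGF-β1 libraries held 2.08 and 1.56 CPM in the low gate and 1.66, 2.88 and 0.628 CPM in the high gate. MMP7 fell by 6.47 ± 0.33 on the log2 scale with TGF-β1 (edgeR adjusted p = 2.15e-10). The value with GSK126 was -0.76 ± 0.25 and missed the threshold (edgeR adjusted p = 0.0886), but it passed with DESeq2 (adjusted p = 0.0203), with RLE size factors (0.0467), in a fit of the compared groups alone (0.0220) and without the 2 libraries richest in olfactory receptor reads (0.000801). Leaving out naive A alone, 1 of these 2, also gave a call (-0.94, edgeR adjusted p = 0.0108).

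In H1944, where naive libraries held 0.420, 0.416 and 0.678 CPM (1, 1 and 9 counts), MMP7 rose with GSK126 in every library, to 19.8, 9.40 and 18.7 CPM in the low gate and 24.6, 19.7 and 20.2 CPM in the high gate. The pooled ratio was 30.6-fold (95% counting interval 16.9 to 61.8), and the fitted log2 change was 4.75 ± 0.39 (edgeR adjusted p = 5.60e-12). Under TGF-β1 the 6 libraries held 0 to 1.21 CPM, 9 counts in all, and overlapped the naive range. The fitted change with TGF-β1 was -0.14 ± 0.67 (edgeR adjusted p = 0.873). MMP7 was thus lower under TGF-β1 than under GSK126 in both lines, by 5.71 ± 0.32 in A549 and 4.89 ± 0.37 in H1944 on the log2 scale (edgeR adjusted p = 7.83e-10 and 1.50e-13). In H1944 MMP7 passed the filter through GSK126 libraries alone, so that test is a description there.

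The windows upstream of 4 members are shown. MMP7 and MMP10 lie in the MMP cluster on chromosome 11. MMP10, MMP14 and TIMP3 rose with TGF-β1 in H1944, and MMP7 was not called there. Whether the windows relate to these changes was not tested. The windows were taken from RefSeq (GRCh38.p14), which matched 5 of the 10 members. They are printed 5′ to 3′ on the gene's strand and begin 250 bases before the annotated start. Each ends before the first base that GENCODE 29 annotates as exon. Capitals mark matches, on either strand, to 5 short motifs: AP-1, spelled TGANTCA, the core promoter's TATA box, spelled TATAAA, Sp1, spelled GGGCGG, ETS, spelled AGGAAG, and SMAD, spelled CAGAC. No matches overlapped in the printed windows.
MMP7 (chr11:102530754-102530997, minus strand): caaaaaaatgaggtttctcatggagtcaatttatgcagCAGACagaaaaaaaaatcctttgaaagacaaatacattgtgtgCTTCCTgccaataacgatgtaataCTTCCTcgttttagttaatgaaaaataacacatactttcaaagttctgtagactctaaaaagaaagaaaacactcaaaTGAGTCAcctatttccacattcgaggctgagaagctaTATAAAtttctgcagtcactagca
MMP10 (chr11:102780629-102780878, minus strand): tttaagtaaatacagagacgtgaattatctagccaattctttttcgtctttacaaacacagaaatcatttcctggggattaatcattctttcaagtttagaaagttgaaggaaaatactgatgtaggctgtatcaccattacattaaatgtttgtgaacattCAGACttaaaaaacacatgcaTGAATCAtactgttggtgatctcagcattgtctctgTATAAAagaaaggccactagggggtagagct
MMP14 (chr14:22836335-22836556, plus strand): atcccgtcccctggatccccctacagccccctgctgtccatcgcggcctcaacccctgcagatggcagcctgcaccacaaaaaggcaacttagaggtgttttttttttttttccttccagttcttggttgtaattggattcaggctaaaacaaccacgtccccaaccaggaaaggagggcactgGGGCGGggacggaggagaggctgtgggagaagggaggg
TIMP3 (chr22:32801455-32801700, plus strand): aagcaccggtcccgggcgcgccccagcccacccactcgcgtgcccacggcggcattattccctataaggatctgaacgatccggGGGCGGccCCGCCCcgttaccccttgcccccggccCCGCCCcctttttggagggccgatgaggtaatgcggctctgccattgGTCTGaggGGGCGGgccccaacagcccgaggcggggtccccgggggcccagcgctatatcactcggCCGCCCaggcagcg

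The MMP7 and MMP10 windows were alike in 3 ways: an AP-1 match from 67 to 61 bases before the start, a TATA match about 30 bases before it, and a GC content of 33.6% and 34.4%, against a median of 58.0% over all windows. Of all 27305 windows of 250 bases, 6.60% held the AP-1 letters and 11.1% the TATA letters. MMP7 also held 2 ETS matches and 1 SMAD match, and MMP10 held 1 SMAD match. The TIMP3 window had a GC content of 72.4%, 26 CpG sites, 5 Sp1 matches and 1 SMAD match, and the MMP14 window had 56.8%, 7 CpG sites and 1 Sp1 match. The TIMP1 window, which is not printed, held 2 Sp1 matches and 1 ETS match. Over all windows 42.3% held the Sp1 letters, 28.7% the ETS letters and 37.8% the SMAD letters. A match describes letters and does not show that a factor was bound.

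MMP10, a stromelysin that cuts many matrix proteins and can activate other MMP precursors, was low in every group. In H1944 the naive arm held 2 counts, and under TGF-β1 the low gate held 1.83, 7.83 and 5.09 CPM and the high gate 0, 4.58 and 4.32 CPM. Library A was the lowest in both gates, and its 0 in the high gate overlapped the naive range. MMP10 rose by 4.73 ± 0.91 on the log2 scale with TGF-β1 (edgeR adjusted p = 3.39e-05), with a pooled ratio of 33.3 (95% counting interval 8.79 to 282). With GSK126 the 6 libraries held 0 to 1.10 CPM and the value was 1.71 ± 1.20 (edgeR adjusted p = 0.274). In A549 the 5 TGF-β1 libraries held 1.04 to 4.43 CPM, all above the naive libraries (0.870, 0.145 and 0 CPM), but the log2 fold change of 2.35 ± 1.19 was not called (edgeR adjusted p = 0.216). It passed the filter there through 2 TGF-β1 libraries.

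The collagenases MMP1 and MMP13, which cleave fibrillar collagen, stayed near the limit of detection. MMP1 in A549 held 4, 4 and 1 counts in the naive libraries and 10 to 33 counts in each TGF-β1 library (1.56 to 5.54 CPM), all above the naive libraries. MMP1 rose by 2.50 ± 0.78 on the log2 scale with TGF-β1 (edgeR adjusted p = 0.0292), a call that was lost in 8 of 17 alternatives, with an edgeR adjusted p of up to 0.175. It passed the filter through 4 TGF-β1 libraries and 1 GSK126 library. Leaving out 1 library ended it in 5 cases: TGF-β1 low A (2.72), TGF-β1 low C (2.41), TGF-β1 high C (2.50), naive B (2.89) and naive C (2.12). In H1944 MMP1 held 1 count in naive cells and 15 counts under each treatment. WTAPP1, on the opposite strand, shares 150 exon bases with MMP1.

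MMP13 held 27, 1 and 0 counts in the A549 naive libraries. Library A, with the 27 counts (3.91 CPM), and TGF-β1 high B, with 3.77 CPM, were the libraries richest in olfactory receptor reads, and the other 11 A549 libraries held at most 1.73 CPM. No comparison called MMP13: in A549 the log2 fold change was -0.11 ± 1.17 with GSK126 and 0.05 ± 1.15 with TGF-β1 (edgeR adjusted p = 0.973 and 0.991), and both signs changed under other settings. In H1944 it held 6, 9 and 7 counts in the naive, GSK126 and TGF-β1 arms, so a change was not detectable at this depth.

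**Figure D3:**
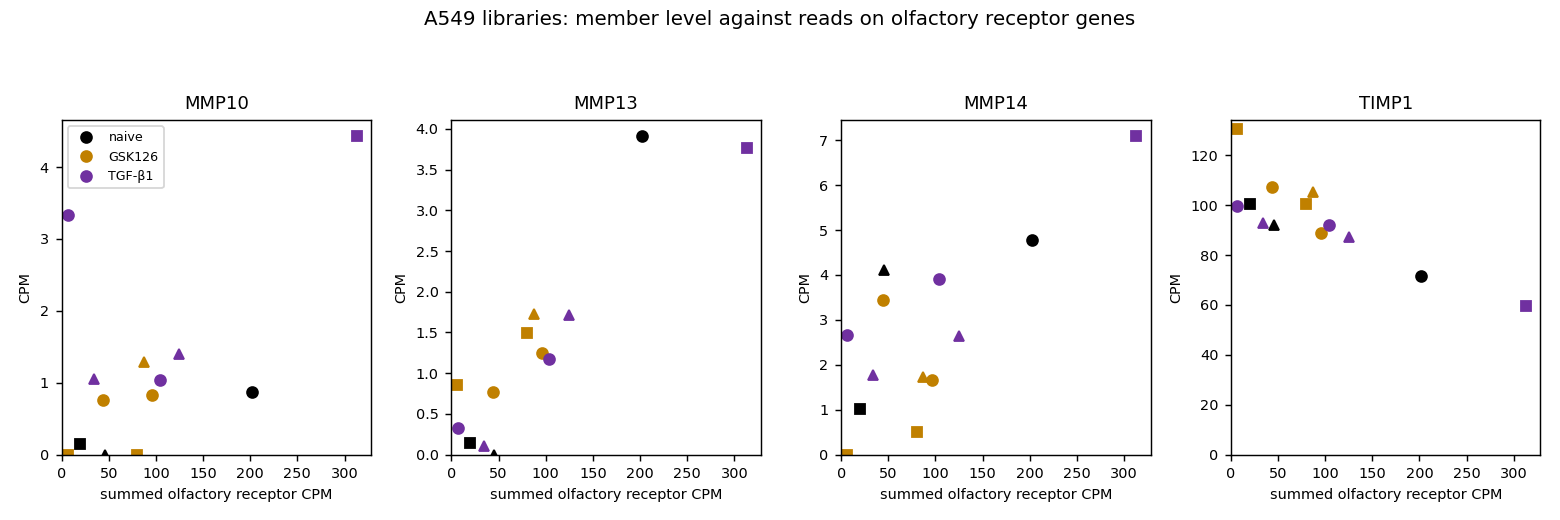
Level of MMP10, MMP13, MMP14 and TIMP1 in CPM in the 13 A549 libraries, each against the summed CPM of 381 olfactory receptor genes; colours mark treatment, symbols the replicate letter. The 2 libraries farthest to the right (202 and 313 CPM) hold the highest MMP13 and MMP14 levels and the lowest TIMP1 levels, 71.6 and 59.4 CPM.

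TIMP1, a soluble inhibitor of most MMPs, was the most even member. In H1944 naive libraries held 58.0, 64.1 and 55.8 CPM, GSK126 libraries 80.7 to 109 CPM (median 86.9) and TGF-β1 libraries 77.9 to 90.1 CPM (median 83.8). Both treated arms lay above naive and overlapped each other. TIMP1 rose by 0.50 ± 0.10 with GSK126 (edgeR adjusted p = 7.48e-05) and 0.59 ± 0.10 with TGF-β1 (edgeR adjusted p = 4.01e-06) on the log2 scale. In A549 the naive libraries held 71.6, 101 and 91.9 CPM and both treated arms overlapped them. Log2 fold changes there were 0.19 ± 0.26 with GSK126 and -0.20 ± 0.26 with TGF-β1 (edgeR adjusted p = 0.761 and 0.756). TIMP1 lies inside SYN1 on the opposite strand, whose mean was at most 0.576 CPM in any arm.

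TIMP3, the inhibitor that binds to the matrix and also blocks ADAM and ADAMTS proteases, appeared with treatment in H1944. The naive libraries held 1, 0 and 0 counts. Under GSK126 the low gate held 5.10, 6.93 and 5.75 CPM and the high gate 7.25, 3.80 and 6.74 CPM. Under TGF-β1 the low gate held 18.6, 13.9 and 15.7 CPM and the high gate 25.4, 20.4 and 19.3 CPM. The arms did not overlap. Over naive the pooled ratio was 109 (95% counting interval 19.2 to 4350) for GSK126 and 343 (61.1 to 13600) for TGF-β1. TIMP3 rose by a fitted 5.93 ± 0.60 with GSK126 and 7.76 ± 0.51 with TGF-β1 on the log2 scale (edgeR adjusted p = 6.87e-10 and 3.62e-15), values that rest on 1 naive count. TGF-β1 lay 1.82 ± 0.20 above GSK126 (edgeR adjusted p = 1.75e-09).

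In A549 TIMP3 held 0 counts in naive cells, which allows up to 3 counts over the arm, and 2 counts under GSK126. Under TGF-β1 it held 13 and 3 counts in the low gate and 11, 6 and 18 in the high gate, at least 11.1-fold higher than naive against that floor. TIMP3 lies inside SYN3 on the opposite strand with no shared exon, and SYN3 had means of 0.151 to 2.36 CPM in the 6 arms.

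Counted over the tested members, 2 of 9 rose and 0 fell with GSK126 in A549, where 3.57% of 19842 genes rose and 3.20% fell. With TGF-β1 in A549 4 of 9 rose (MMP1 and MMP9, which passed the filter through treated libraries alone, are 2 of them) and 1 fell, against 7.67% and 11.4% of genes. In H1944 5 of 7 rose and 0 fell with GSK126, where 21.5% of 13621 genes rose and 18.7% fell, and 6 of 7 rose and 0 fell with TGF-β1, against 32.1% and 31.6%. Of these, MMP2, MMP7 and TIMP3 with GSK126, and MMP2, MMP10 and TIMP3 with TGF-β1, passed the filter through treated libraries alone. The median log2 fold change of the tested members was 0.41 and 2.35 in A549 and 1.71 and 2.42 in H1944 for GSK126 and TGF-β1, beside medians of -0.17, 0.05, 0.01 and -0.01 over all genes. Both treatments of a line share its naive libraries. Directly between treatments, TGF-β1 was higher than GSK126 in 3 of 9 members and lower in 1 in A549 (7.93% and 11.4% of genes), and higher in 5 of 7 and lower in 1 in H1944 (31.6% and 32.1%). MMP9 in A549 and MMP10 in H1944 passed the filter through TGF-β1 libraries alone, and MMP7 in H1944 through GSK126 libraries alone. Their tests between treatments are therefore descriptions as well. MMP14 in A549 was also called between the treatments without GSK126 high A (4.21, edgeR adjusted p = 0.0238, against 1.10 ± 0.72 and 0.304 with it).

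The high gate was compared with the low gate to ask which members followed the reporter. mVenus itself ran from 209 to 280 CPM in the low and from 808 to 906 CPM in the high GSK126 gate of H1944. There MMP2 and MMP14 rose, 2 of 7 members, and 0 fell, where 3.62% of genes rose and 3.31% fell. MMP2 held 3.19, 4.70 and 4.32 CPM in the low and 9.45, 9.68 and 11.1 CPM in the high gate, without overlap (log2 fold change 1.27 ± 0.23, edgeR adjusted p = 0.000697). MMP14 held 44.7, 42.3 and 48.0 CPM in the low and 65.1, 58.7 and 68.8 CPM in the high gate, also without overlap (0.52 ± 0.12, edgeR adjusted p = 0.00499). TIMP2 (0.40 ± 0.13, edgeR adjusted p = 0.0534) and TIMP1 (0.26 ± 0.11, edgeR adjusted p = 0.150) were higher in all 3 high libraries than in any low library but missed the threshold. TIMP3 (0.02 ± 0.32) and MMP7 (0.47 ± 0.26) overlapped between gates. The MMP14 call was lost without low B (0.45, edgeR adjusted p = 0.0701) and with no filter (0.50, edgeR adjusted p = 0.0501), and the TIMP2 value passed with DESeq2 (0.38, adjusted p = 0.0368) and without low A (0.55, edgeR adjusted p = 0.0138).

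**Figure D4:**
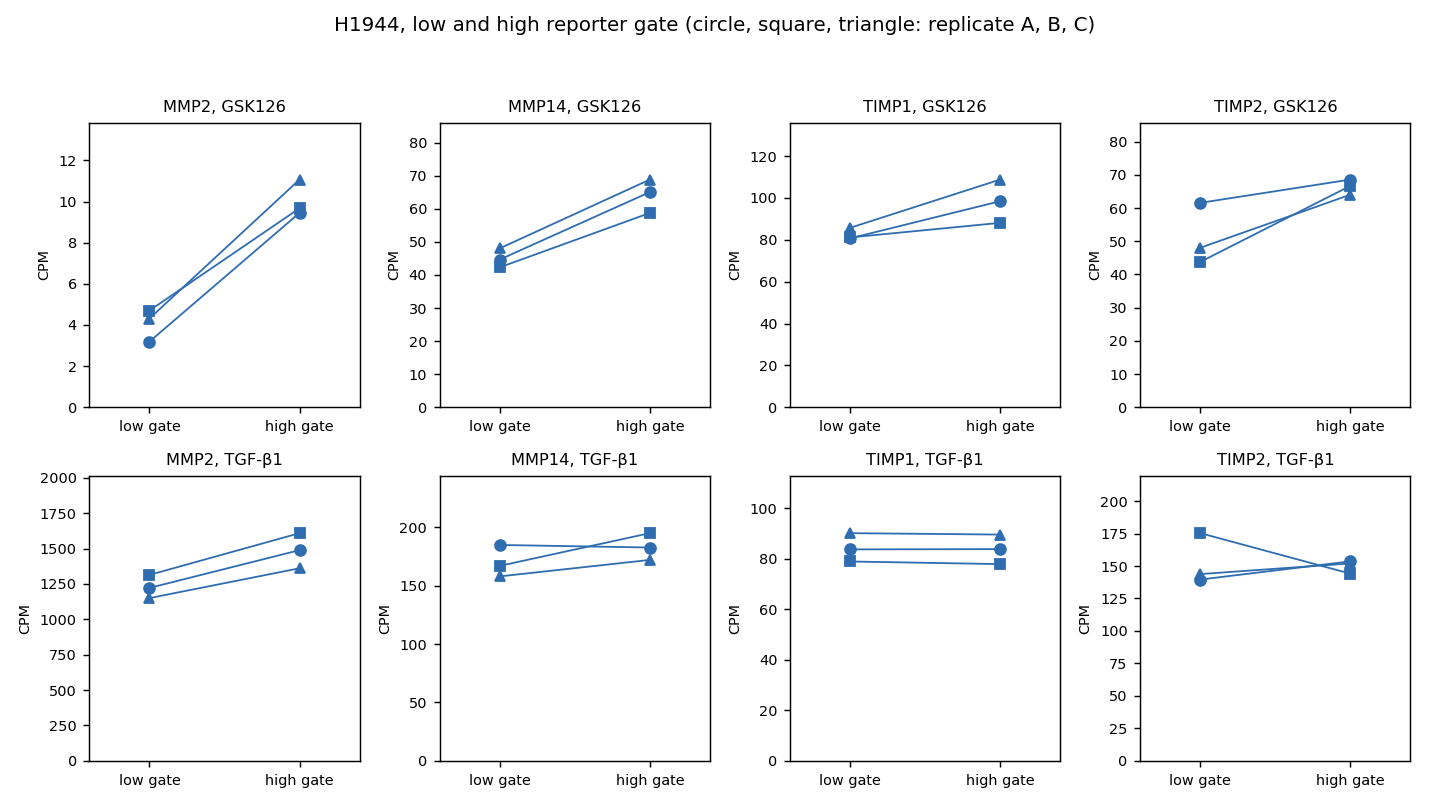
CPM of MMP2, MMP14, TIMP1 and TIMP2 in the low and high gates of H1944 under GSK126 (upper row) and TGF-β1 (lower row), with lines joining libraries of the same letter. Under GSK126 all 3 lines of each gene climb, and under TGF-β1 those of MMP2 climb from 1150 to 1314 CPM in the low gate to 1361 to 1609 CPM in the high gate.

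Under TGF-β1 0 of 7 members were called between the gates of H1944 with edgeR, where 0.0147% of genes were higher and 0.0440% lower. At an unadjusted p under 0.05 there was 1 member, MMP2, and DESeq2 called 0. MMP2 held 1222, 1314 and 1150 CPM in the low and 1489, 1609 and 1361 CPM in the high gate, without overlap, a log2 fold change of 0.30 ± 0.09 (edgeR adjusted p = 0.544). In fits of these 6 libraries alone its value of 0.29 passed (edgeR adjusted p = 0.0349, and 0.000212 with the replicate block). Those fits called 26 and 92 genes, and the one with the block was added after seeing the data. TIMP3 was also higher in all 3 high libraries (0.42 ± 0.26, edgeR adjusted p = 0.955).

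In A549 0 of 9 members were called between the gates under GSK126 and 0 of 9 under TGF-β1, and 0% of 19842 genes were called in either direction in both comparisons with edgeR. At an unadjusted p under 0.05 there were 0 members in both, with 986 and 197 genes, and DESeq2 called 0 members in both, with 0 and 15 genes. The log2 fold change of MMP2 was 0.46 ± 0.34 under GSK126 and 0.38 ± 0.34 under TGF-β1, and that of TIMP2 was 0.37 ± 0.31 and 0.55 ± 0.30. TIMP2 was higher in all 3 high TGF-β1 libraries than in both low ones. In a fit of the 4 TGF-β1 libraries of letters A and C alone, with the letter as a replicate block, MMP2 (0.55 ± 0.11, edgeR adjusted p = 0.000593) and TIMP2 (0.64 ± 0.11, edgeR adjusted p = 7.30e-05) passed. That fit was added after seeing the data, left out high B and took its spread from only 4 libraries. It called 1241 genes, where the main fit called 0. The A549 fit had a common biological coefficient of variation of 0.358, against 0.0978 in H1944, so smaller differences could be called in H1944.

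Between the lines, naive H1944 had more MMP14 than naive A549 (log2 difference 3.95 ± 0.32, edgeR adjusted p = 1.33e-11) and less MMP2 (-5.73 ± 0.44, edgeR adjusted p = 3.91e-12), MMP7 (-7.66 ± 0.41, edgeR adjusted p = 1.44e-15) and TIMP1 (-0.56 ± 0.20, edgeR adjusted p = 0.0227). That is 1 of 10 members higher and 3 lower, where 23.9% of 17918 genes were higher and 22.9% lower. The libraries of the lines did not overlap for any of these 4. How many of all genes did the same was not counted, so this is no result about these members. MMP1, at a log2 difference of -2.55 ± 1.09 without a call (edgeR adjusted p = 0.0544), passed with RLE size factors (-2.67, edgeR adjusted p = 0.0378), with library sizes before the filter (-2.65, edgeR adjusted p = 0.0410) and without naive C of A549 (-2.97, edgeR adjusted p = 0.0314). The TIMP1 call was lost without naive B of A549 (-0.46, edgeR adjusted p = 0.0534), without naive A of H1944 (-0.55, edgeR adjusted p = 0.0618) and with the replicate block (-0.44, edgeR adjusted p = 0.184).

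The response to treatment was compared between lines in the same fit. The GSK126 effect differed for 1 of 10 members, MMP7, by 5.50 ± 0.49 on the log2 scale (H1944 minus A549, edgeR adjusted p = 2.08e-09), where 6.18% of genes had a higher and 3.73% a lower effect in H1944. The TGF-β1 effect was higher in H1944 for 3 of 10 members and lower for 0, where the shares were 10.5% and 9.48%. These were MMP2 (6.16 ± 0.47, edgeR adjusted p = 2.86e-11), MMP14 (1.85 ± 0.43, edgeR adjusted p = 0.00184) and MMP7 (6.17 ± 1.46, edgeR adjusted p = 0.00216). MMP7 had little room to fall in H1944, with 11 naive counts, and without TGF-β1 high B of H1944, which leaves that gate at 0 counts, its difference lost the call (4.43, edgeR adjusted p = 0.999). The GSK126 effect on MMP14 (1.19 ± 0.54, edgeR adjusted p = 0.181) passed without GSK126 high A (4.13) or naive B (1.56) of A549. The TGF-β1 effect on TIMP1 (0.62 ± 0.25, edgeR adjusted p = 0.0823) passed without naive A (0.84), TGF-β1 high A (0.72), high B (0.49) or high C (0.65) of A549. It also passed with RLE size factors (0.67, edgeR adjusted p = 0.0199), DESeq2 (0.67, adjusted p = 0.0159), library sizes before the filter (0.65, edgeR adjusted p = 0.0386) and without the 2 libraries richest in olfactory receptor reads (0.69, edgeR adjusted p = 0.00129). Without those 2 the GSK126 effect on TIMP1 passed as well (0.46, edgeR adjusted p = 0.0498). The MMP2 levels of the lines did not overlap in naive cells and overlapped under TGF-β1.

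Other genes of the same protease system were read from lists chosen by function. Their counts are descriptions, to be read against the shares of all tested genes: with GSK126 and TGF-β1, 3.57% and 7.67% rose and 3.20% and 11.4% fell in A549, and 21.5% and 32.1% rose and 18.7% and 31.6% fell in H1944. Of 9 genes of plasminogen activation, the cascade whose plasmin activates several MMP precursors, 4 of 7 tested rose with each treatment in A549 and 5 of 6 with each in H1944, and 0 fell. The activator PLAU rose on the log2 scale with both treatments in A549 (1.46 ± 0.24 and 2.99 ± 0.26, GSK126, then TGF-β1) and by 0.28 ± 0.11 and 2.29 ± 0.12 in H1944. The list's median was 1.07 and 1.93 in A549 and 1.84 and 4.06 in H1944.

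Among 16 other MMPs and TIMP4, few were expressed: the filter passed 10 of the 17 in A549 and 5 in H1944. The membrane-bound MMP16 rose with TGF-β1 in both lines (1.99 ± 0.21 in A549 and 4.08 ± 0.31 in H1944) and with GSK126 in H1944 (2.30 ± 0.34), and its value with GSK126 in A549 was 0.65 ± 0.21 (edgeR adjusted p = 0.0749). MMP15, also membrane-bound, fell in H1944 by 0.59 ± 0.15 with GSK126 and by 2.31 ± 0.18 with TGF-β1. MMP24 fell by 1.47 ± 0.28 with TGF-β1 in A549 and rose by 1.28 ± 0.16 with GSK126 in H1944. TIMP4 rose in H1944 by 1.34 ± 0.40 and 2.22 ± 0.40. In all, 0 of 10 rose and 0 fell with GSK126 in A549 and 2 rose and 1 fell with TGF-β1 (medians -0.06 and 0.27). In H1944 3 of 5 rose with GSK126 and 4 with TGF-β1, and 1 fell with each (medians 1.28 and 2.22), where 21.5% and 32.1% of all genes rose and 18.7% and 31.6% fell.

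Of 13 activators and surface regulators, 12 were tested in each line. In A549 5 rose and 1 fell with GSK126, and 5 rose and 3 fell with TGF-β1. In H1944 7 rose and 3 fell with GSK126, and 7 rose and 4 fell with TGF-β1, and the numbers that fell are near the shares of all genes (18.7% and 31.6%). The medians were 0.37 and 0.60 in A549 and 0.32 and 0.98 in H1944. THBS1, a matrix glycoprotein that binds several MMPs, rose in all 4 comparisons, by 1.35 ± 0.23 and 3.75 ± 0.26 in A549 and by 1.04 ± 0.10 and 4.47 ± 0.11 in H1944. LCN2, which forms a complex with MMP9, fell in A549 by 2.18 ± 0.37 and 5.22 ± 0.44. In H1944 the proprotein convertase PCSK5 rose by 3.73 ± 0.18 and 5.20 ± 0.17, and BSG, a surface inducer of MMPs, fell by 1.08 ± 0.08 with GSK126.

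All 16 listed transcription factors that act on MMP genes were tested. In A549 6 rose and 0 fell with GSK126, and 9 rose and 2 fell with TGF-β1, while in H1944 9 rose and 2 fell, and 12 rose and 3 fell. Of all genes, 3.57% and 7.67% rose in A549 and 21.5% and 32.1% in H1944. The medians were 0.57 and 1.16 in A549 and 0.65 and 0.90 in H1944. JUN, an AP-1 subunit, rose in all 4 comparisons, by 2.29 ± 0.28 and 2.91 ± 0.29 in A549 and by 1.30 ± 0.11 and 2.42 ± 0.11 in H1944. FOSL1, another AP-1 subunit, rose by 3.72 ± 0.27 with GSK126 in A549 and was lower there by 2.54 ± 0.21 under TGF-β1 than under GSK126. ETS1 rose by 2.19 ± 0.21 with TGF-β1 in A549 and by 2.68 ± 0.25 and 5.20 ± 0.22 in H1944. RUNX2 rose in A549 by 4.54 ± 0.33 and 4.42 ± 0.33.

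Of the matrix proteins that MMPs cut, 6 of 13 tested rose in A549 with each treatment (1 fell with GSK126, 0 with TGF-β1), and 7 of 9 with GSK126 and 9 of 9 with TGF-β1 in H1944 (0 fell). Of all genes, 3.57% and 7.67% rose in A549 and 21.5% and 32.1% in H1944. The medians were 0.08 and 1.29 in A549 and 2.32 and 5.16 in H1944. COL1A1 rose by 3.55 ± 0.40 with GSK126 and 6.81 ± 0.43 with TGF-β1 in A549, and by 2.40 ± 0.15 and 8.83 ± 0.15 in H1944. VCAN fell with GSK126 in A549 by 1.90 ± 0.21. Of 6 proteases of the ADAM and ADAMTS families that TIMP3 can inhibit, ADAMTS1 rose in A549 by 1.92 ± 0.21 and 1.31 ± 0.21 and in H1944 by 1.97 ± 0.11 with TGF-β1, and ADAM10 fell by 0.43 ± 0.09 with GSK126 in H1944. In all 2 of 5 rose with each treatment in A549, and 0 and 2 of 4 in H1944, where 1 fell with GSK126. Of all genes in H1944, 32.1% rose with TGF-β1 and 18.7% fell with GSK126, so 2 and 1 of 4 are no result about these proteases. The medians were -0.16 and 0.50 in A549 and -0.20 and 0.50 in H1944.

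The patterns of 5 members could be compared with other genes, by Pearson's correlation of log2(CPM + 1) over the 10 group means among 3266 coding genes that reached 10 CPM in some group and ranged over at least 2 on that scale, the same limits that the members met. The groups share line and treatment, so these values are descriptions. MMP2 was most like FRMD6 (0.993), PLCB4 (0.989) and MAML2 (0.989), and MMP7 most like STK32B (0.981), CEACAM6 (0.977) and CLDN2 (0.972). MMP14 was most like KRT17 (0.990), EPPK1 (0.988) and TBX15 (0.988), and TIMP2 most like RUNX1 (0.984), KDM6B (0.982) and SEMA7A (0.981). HS3ST3A1 (0.985) and DAPK3 (0.978) were among the genes closest to TIMP3. Among the members themselves the closest pairs were MMP14 with TIMP3 (0.822) and MMP2 with TIMP2 (0.807), and MMP7 was negatively correlated with the other 4 (-0.297 to -0.647).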

How the data were processed

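RNA-seq counts of 28 libraries in 10 groups were used. Reads were handled with bcl2fastq 2.20.0, STAR 2.6.0c and HTSeq 0.12.3 on GRCh38, per the submitters' processing notes; the kit was stranded, per the labels' protocols, and the strand setting of the counting is not given in the sources used here. The authors deposited raw counts for 60483 gene rows and 4 reporter rows, and 56753 gene IDs matched GENCODE 29, which gave exon lengths for TPM. Tests on the counts used edgeR 4.0.16 (R 4.3.3): TMM scaling, the tool's expression filter, quasi-likelihood fits of each line with 5 groups and of both lines together, and Benjamini-Hochberg adjustment at 0.05, over 13 comparisons. The SE is the log2 fold change divided by the square root of its F value. CPM values use library totals without TMM. The reporter was fitted with the genes but not counted among those called. The procedure was tested on simulated data.

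The members and the gene lists were chosen with earlier results of these data known. All members are named, and of each list the genes of smallest adjusted p that reached 2 CPM on average in a group compared (4 per list against naive cells, 2 otherwise), of which the text gives a part; other values of these genes are given for comparison. Alternatives were RLE size factors, no filter, the replicate letter as a block, DESeq2 1.42.0, each gate alone, the compared groups alone, each library left out, and A549 without its 2 background-rich libraries. Library sizes before the filter, and the gates alone with the block, were added after seeing the data. Same-lettered low and high GSK126 libraries of H1944 deviated together (r = 0.124, 0.143 and 0.101 over 11839 genes), so the letter was taken to pair them, on the evidence of these values, since the labels do not say so. Other groups were not taken as paired, although some of their same-lettered libraries also deviated together. An example is the low GSK126 and low TGF-β1 gates of H1944 (r = 0.178, 0.138 and 0.044). A549 GSK126 high C and TGF-β1 low B were not analysed here.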

Additional observations from a re-analysis of the deposited data

Results flagged for a closer look

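The effect of a treatment differed between H1944 and A549, by a test of the difference itself, for 3 members in 4 cases. For GSK126 that is 1 of 10 members, where 1775 of 17918 genes differed, so this count is near the share of all genes. For TGF-β1 it is 3 of 10 members, where 3588 of 17918 genes differed. The GSK126 effect on MMP7 was higher in H1944 by 5.50 on the log2 scale. MMP7 lay above naive in 6 of 6 H1944 libraries, where the naive arm held 11 counts. It lay below every naive library in 5 of 5 A549 libraries. The A549 value of -0.76 ± 0.25 was not called (edgeR adjusted p = 0.0886). The TGF-β1 effect on MMP2 was higher by 6.16 and that on MMP14 by 1.85 in H1944. The MMP2 value rests on 9 naive counts in H1944, and MMP14 held at most 7.09 CPM in A549. The TGF-β1 effect on MMP7 was higher by 6.17, a value that rests on 11 naive and 9 TGF-β1 counts in H1944.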

How the results depend on the processing

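Of 38 called member values, 33 kept their call under every alternative run. The exceptions were TIMP2 with GSK126 and MMP1 with TGF-β1 in A549, MMP14 between the GSK126 gates of H1944, TIMP1 between naive lines and the TGF-β1 effect on MMP7. Over 1768 member values 24 calls were lost and 26 gained, and 80 values changed sign, 0 of them called before or after. The cause of these changes was not tested. With TMM library sizes 8 of 100 group means moved by more than 1 SD, the largest by 7.4%. In members with few counts depth limits the precision.

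In A549 with GSK126, 1 member was called instead of 2 with no filter, with the replicate block, in the low gate alone and in the high gate alone. The genes called there numbered 2160 with DESeq2, 852 in the low gate alone, 2212 in the compared groups alone and 2648 without the 2 background-rich libraries. In A549 with TGF-β1, 2383 genes were called in the low gate alone. Between the A549 GSK126 gates 16 genes were called with no filter, 18 in the gates alone and 85 in the gates alone with the replicate block. Between the A549 TGF-β1 gates these were 3 with no filter, 15 with DESeq2, 53 without the 2 background-rich libraries, and 1241 with 2 members in the gates alone with the replicate block. Between the H1944 GSK126 gates 570 genes and 1 member were called with no filter and 428 genes in the gates alone. Between the H1944 TGF-β1 gates 13 genes were called with no filter and 13 with DESeq2, 26 genes and 1 member in the gates alone, and 92 genes and 1 member there with the replicate block. The GSK126 effect differed between lines for 2 members without the 2 background-rich libraries.

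Signs changed for uncalled values as follows. In A549 with TGF-β1, MMP14 was 0.026 with RLE size factors, 0.037 with the replicate block, 0.023 with DESeq2, 0.016 in the high gate alone and 0.071 in the compared groups alone, and MMP13 was -0.064 with no filter and -0.072 in the high gate alone. With GSK126, MMP13 was 0.035 with the replicate block and 0.220 in the low gate alone, where TIMP1 was -0.044. Between the A549 TGF-β1 gates TIMP1 was 0.044 with no filter. In the gates alone with the replicate block TIMP1 was 0.195 and MMP14 -0.469, and without the 2 background-rich libraries they were 0.190 and -0.551. In H1944 with GSK126, MMP14 was -0.007 with no filter and -0.253 in the low gate alone, and with TGF-β1 MMP7 was 0.675 in the low gate alone. TIMP1 between H1944 treatments was -0.037 with no filter, and TIMP3 between its GSK126 gates was -0.031 with the replicate block and -0.025 in the gates alone with it. Of the GSK126 effects between lines, TIMP2 was 0.002 with no filter, MMP9 was -0.120 with the replicate block, and without the 2 background-rich libraries MMP9 was -0.685, MMP10 -0.591 and TIMP2 0.068. There the TGF-β1 effect on MMP9 was -0.764 and the naive difference of MMP10 0.418.

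With 1 library left out, ranges were as follows. With GSK126 in A549 the members called ran from 1 to 2 and the genes from 627 (without high B) to 1715; without high A they were 828 and without naive B 846. Between the A549 treatments genes ran from 2100 (without GSK126 high B) to 4332, and between the A549 TGF-β1 gates from 0 to 6 (without high B). Between the H1944 GSK126 gates members ran from 1 to 3 and genes from 308 (without low B) to 1374, with 533 without high A and 584 without high C, and between its TGF-β1 gates genes ran from 0 to 3. The GSK126 effect differed between lines for 1 to 2 members. Uncalled log2 values that changed sign were, in A549 with GSK126, MMP9 (-0.105 to 1.336) and MMP10 (-1.437 to 2.300), and with TGF-β1 MMP13 (-0.488 to 0.353), MMP14 (-0.415 to 0.364) and TIMP1 (-0.317 to 0.016). Between the A549 GSK126 gates they were MMP2 (-0.146 to 0.893), MMP9 (-1.210 to 0.240), MMP10 (-4.966 to 0.209) and MMP14 (-5.816 to 1.496). Between its TGF-β1 gates they were MMP7 (-0.835 to 0.292), MMP13 (-0.317 to 0.406), MMP14 (-0.450 to 0.554) and TIMP1 (-0.169 to 0.259). In H1944 they were MMP14 with GSK126 (-0.032 to 0.041), MMP7 with TGF-β1 (-1.791 to 0.349), TIMP3 between the GSK126 gates (-0.242 to 0.243), and TIMP1 (-0.041 to 0.065) and TIMP2 (-0.037 to 0.091) between the TGF-β1 gates. Of the GSK126 effects between lines they were MMP9 (-1.866 to 1.712), MMP10 (-0.667 to 2.929), MMP13 (-0.991 to 1.157) and TIMP2 (-0.312 to 0.088), and of the TGF-β1 effects MMP9 (-0.680 to 1.649). Between naive lines they were MMP10 (-1.977 to 0.488) and TIMP3 (0 to 2.965). Where a gate was left with 1 library, that library is assumed to vary like the other groups.

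As a replicate block, the letter changed no member call between the H1944 GSK126 gates, where it was taken to pair libraries (MMP2 1.269, MMP14 0.514). Elsewhere the letter was not taken to pair libraries, and whether it does is not known. In those comparisons the block over all groups ended the calls of TIMP2 with GSK126 (0.860) and MMP1 with TGF-β1 (2.481) in A549 and of TIMP1 between naive lines (-0.439).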
